A study of Mus musculus with 4 samples.

Results

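The NRF2-driven thiol antioxidant genes are taken here as 10 genes, Nfe2l2, Keap1, Nqo1, Gclc, Gclm, Txnrd1, Srxn1, Prdx1, Gpx1 and Gpx2. They were chosen by name, and their measurements are all the non-control spots on the array that carry one of these names. The array held 14 probes for them, out of 41174 probes in all, and the 10 genes are among 15538 genes that could be tested. RNA from organoids grown for 1 week was compared with RNA taken directly from the small intestinal crypts that they were grown from. The organoids were cultured in Matrigel with EGF, R-spondin and Noggin, and the crypts were released with EDTA and passed through a 70 µm strainer. Each Agilent array held organoid RNA in one dye and crypt RNA of the same mouse in the other, and a repeat array had the dyes exchanged, so that 2 mice gave 4 arrays. Both arrays of a mouse together are 1 replicate, which leaves n = 2 mice. Strain, age, sex and genotype are not given in the sources used here.

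NRF2, the protein of Nfe2l2, is a transcription factor that is held in check by KEAP1, which binds it and directs its breakdown. When reactive cysteines of KEAP1 are modified by electrophiles or oxidants, NRF2 persists, pairs with small MAF proteins and binds antioxidant response elements near its target genes. Many of these targets make or use thiols: glutathione is built by glutamate-cysteine ligase, and the thioredoxin and peroxiredoxin system passes electrons through cysteine or selenocysteine to peroxides. In the intestine these enzymes face oxidants from the lumen, from metabolism and from the fast turnover of the epithelium. NRF2 itself is controlled mainly at the level of its protein, which these arrays do not measure.

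The probes show which stretch of each transcript was read. Each is 60 bases long, and its position is that of mm9 in the deposited files. The probes of Gpx1, Keap1, Gclm and Prdx1 are shown because the first belongs to the gene with the lowest ratio, and the other 3 cover more of the genome than their own length (441, 2636 and 771 bases), so each reads across at least 1 splice junction. The Gpx1 probe lies at chr9:108242276-108242335 on the plus strand, that of Keap1 at chr9:21035292-21035732 on the minus strand, that of Gclm at chr3:121962174-121964809 and that of Prdx1 at chr4:116365578-116366348, the last 2 on the plus strand.
Gpx1: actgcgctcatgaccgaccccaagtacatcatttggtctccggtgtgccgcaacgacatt
Keap1: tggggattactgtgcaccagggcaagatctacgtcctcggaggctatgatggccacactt
Gclm: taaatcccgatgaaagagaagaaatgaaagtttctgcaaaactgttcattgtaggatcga
Prdx1: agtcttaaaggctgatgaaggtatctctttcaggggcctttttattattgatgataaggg

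All 14 probes were well above background in all 8 channels, and none was saturated or carried an outlier mark. Ratios are given as log2 of organoid over crypt, and the error after ± is the SD between the 2 mice. A gene is said to have risen or fallen if its limma p, adjusted by the Benjamini-Hochberg method over all 15538 genes, was under 0.05. Of the 10 genes, 2 passed, Gpx1 and Srxn1, and both were lower in organoids, where 5.49% of all genes tested were called lower. None was called higher in organoids, against 5.43% of all genes, and 4 of the 10 had an unadjusted p under 0.05, against 27.6% of all genes. In either direction 10.9% of all genes were called. The median ratio of the 10 genes was -0.09, against 0.02 for all genes.

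**Figure D1:**
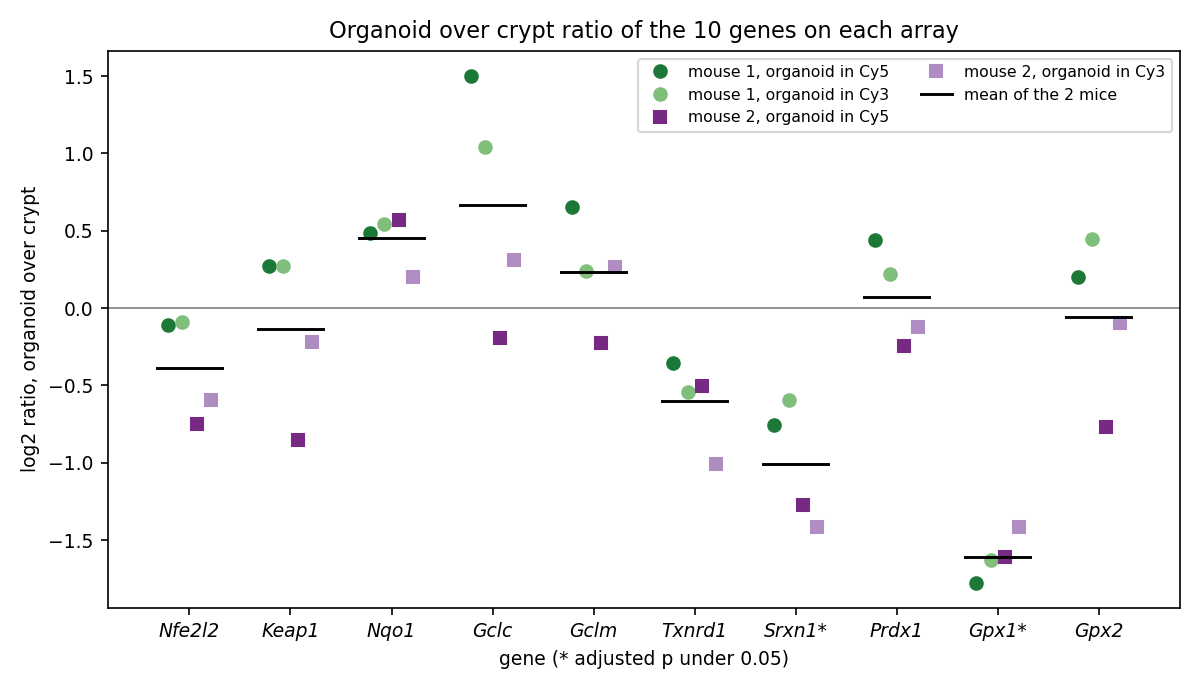
Log2 ratio of organoid over crypt (vertical axis) of the 10 genes on each of the 4 arrays, with circles for mouse 1, squares for mouse 2, and a bar at the mean of the 2 mice. Gpx1 lies between -1.77 and -1.41 on the 4 arrays, and for Keap1, Prdx1 and Gpx2 the arrays of mouse 1 lie above 0 and those of mouse 2 below it.

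Nfe2l2, which encodes NRF2, had a normalised intensity of 13680 in organoids of mouse 1 and 10625 in those of mouse 2, against 14674 in crypts of mouse 1 and 16928 in those of mouse 2. Both organoid samples were below both crypt samples, but the ratio of -0.39 ± 0.40 did not pass the test (adjusted p = 0.244). The ratio was -0.10 in mouse 1 and -0.67 in mouse 2. Its other 2 probes gave -0.41 and -0.28. The first of them starts 146 bases from the probe above. The second lies 16176 bases away and is annotated to a different transcript record. It had 440 and 394 in organoids of mice 1 and 2, against 446 and 571 in crypts. Whether it reads the same transcript was not tested. Keap1, which encodes the inhibitor of NRF2, had 6798 and 4362 in organoids of mice 1 and 2, against 5627 and 6331 in their crypts. The tissues overlapped, the ratio was 0.27 in mouse 1 and -0.54 in mouse 2, and the mean of -0.13 ± 0.57 did not pass (adjusted p = 0.765).

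Nqo1, a quinone reductase often used as a readout of NRF2, had 2885 and 2238 in organoids of mice 1 and 2, against 2020 and 1713 in crypts. Its ratio was 0.49 and 0.54 on the arrays of mouse 1 and 0.57 and 0.20 on those of mouse 2. It was the only 1 of the 10 that was higher in organoids on all 4 arrays, as were 25.4% of all genes tested. The mean of 0.45 ± 0.09 did not pass the test (adjusted p = 0.0977).

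Gclc and Gclm encode the catalytic and the modifier subunit of glutamate-cysteine ligase, the first step of glutathione synthesis. Gclc had 5074 and 2621 in organoids of mice 1 and 2, against 2103 and 2521 in crypts. Its ratio of 1.27 in mouse 1 stood against 0.06 in mouse 2, and the mean of 0.66 ± 0.86 did not pass (adjusted p = 0.230). The 2 arrays of mouse 1 gave 1.50 and 1.04, and those of mouse 2 gave -0.20 and 0.31, so the mice lay further apart than the repeat arrays of either mouse. Gclm had 772 and 518 in organoids, against 566 and 511 in crypts. Its ratio was 0.45 in mouse 1 and 0.02 in mouse 2, in the same order as Gclc, with a mean of 0.23 ± 0.30 (adjusted p = 0.416).

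Txnrd1 encodes the cytosolic thioredoxin reductase, a selenoprotein that returns thioredoxin to its reduced form. It had 16716 and 12368 in organoids of mice 1 and 2, against 22852 and 20848 in crypts. Every array gave a ratio below 0, from -1.01 to -0.36. The mean of -0.60 ± 0.21 did not pass the test (adjusted p = 0.063).

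Srxn1 encodes sulfiredoxin, which repairs peroxiredoxins whose cysteine has been over-oxidised. It had 6772 and 3935 in organoids of mice 1 and 2, against 10798 and 10001 in crypts. Both organoid samples lay below both crypt samples, and the gene fell by 1.01 on the log2 scale (2.01-fold; SD 0.48; adjusted p = 0.0366). These values come from its brightest probe, at chr2:151936919-151936978. The other 2 probes lie 1687 bases or more upstream of it. They share 13 of their 60 bases with each other (ATGAACTATGTAC), so they read adjoining stretches that partly overlap. They gave -0.58 each and did not pass over all probes (adjusted p = 0.233 and 0.237). By these probes mouse 1 was near 0 (-0.08 and -0.07) and mouse 2 was at -1.08 and -1.10. Over probes, 2 of 14 passed, against 9.26% of all 21923 probes tested. With the mean of its probes in place of the brightest, Srxn1 had -0.72 and did not pass (adjusted p = 0.128). It also missed the threshold with the authors' deposited matrix (adjusted p = 0.0705) and with the scanner's own ratios (0.0752).

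Prdx1, the abundant cytosolic peroxiredoxin and a substrate of sulfiredoxin, had 31827 and 24423 in organoids of mice 1 and 2, against 25272 and 27801 in crypts. The tissues overlapped, with a ratio of 0.33 in mouse 1 and -0.19 in mouse 2 (mean 0.07 ± 0.37, adjusted p = 0.841). So of the sulfiredoxin and peroxiredoxin pair, Srxn1 passed and Prdx1 did not. The difference between these 2 genes was not tested.

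Gpx1 and Gpx2 are glutathione peroxidases, selenoproteins that reduce peroxides with glutathione. Gpx1 is expressed in most tissues, and Gpx2 mainly in the epithelium of the gut. Gpx1 had 15608 and 18059 in organoids of mice 1 and 2, against 50763 and 51529 in crypts. It fell by 1.61 on the log2 scale (3.05-fold; SD 0.13; adjusted p = 0.0046), and mice and dye orientations lay close together. Gpx2 had 46186 and 31123 in organoids, against 36918 and 42034 in crypts, and the tissues overlapped. Its ratio was 0.32 in mouse 1 and -0.43 in mouse 2 (mean -0.06 ± 0.54, adjusted p = 0.907).

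**Figure D2:**
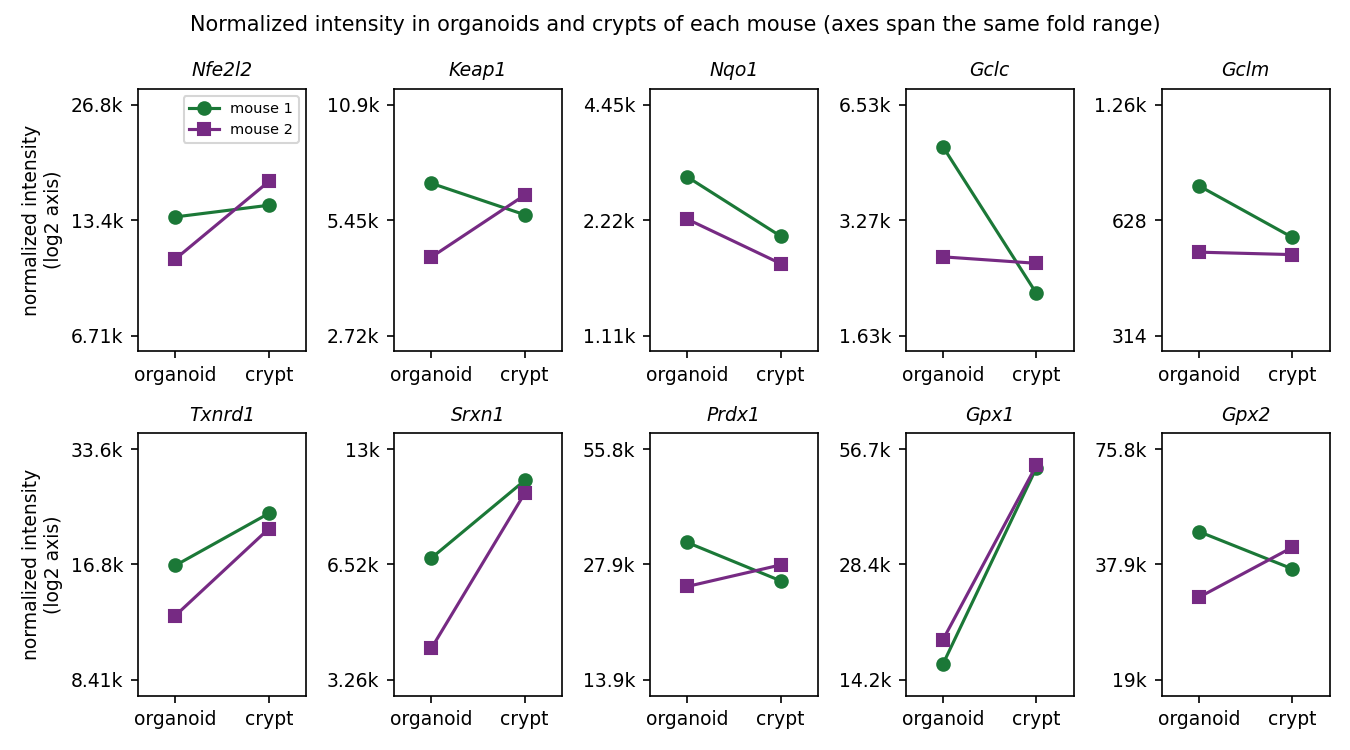
Normalised intensity (log2 vertical axis, the same fold range in each panel) of the 10 genes in organoids and crypts, with a line for each mouse. The lines of both mice run steeply and close together for Gpx1 (15608 and 18059 in organoids, 50763 and 51529 in crypts), and cross for Nfe2l2, Keap1, Gclc, Prdx1 and Gpx2.

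Both calls end when each array is centred on its median in place of the loess curve. The ratio was then -1.20 for Gpx1 (adjusted p = 0.150) and -0.71 for Srxn1 (adjusted p = 0.603). That centring moves the median of all genes to 0.17, and Keap1 (0.15) and Gpx2 (0.37) are then above 0, as is the median of the 10 genes (0.26).

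Cell type markers also differed between the tissues. In bulk RNA, fewer cells of a type and less RNA per cell cannot be told apart. All 10 epithelial markers were well above background in every organoid and crypt channel. Of these, 4 fell (Krt8, Krt19, Vil1 and Cldn7) and Krt18 rose, with a median of -0.61, and their summed intensity was 469794 and 478920 in organoids of mice 1 and 2, against 671900 and 606975 in crypts. Of 10 enterocyte markers 9 fell, and their summed intensity was 199771 and 189972 in organoids of mice 1 and 2, against 675726 and 599882 in crypts. All 6 tested Paneth cell markers fell, with sums of 154328 and 164685 in organoids, against 767454 and 598674 in crypts. White blood cell markers summed to 13696 and 16446 in organoids, against 66397 and 67776 in crypts. Most of that sum was Lyz2, which fell, with 11668 and 14277 in organoids, against 63638 and 65088 in crypts. Cd3g, Cd52 and Itgam were not well above background in any organoid channel and were tested only because they were in the crypt channels, so their part in the count of called markers is not read. Of the stromal markers, 3 of 11 were bright enough to test, with sums of 6988 and 6018 in organoids, against 10600 and 8432 in crypts. Most of that sum was Acta2, which fell by 0.66 on the log2 scale, while Col1a2 (-0.0048) and Vim (0.21) did not pass. Of 6 stem cell markers 2 rose and none fell. The part of these shifts in the lower Gpx1 and Srxn1 was not tested.

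Of the 10 genes, 8 had an SD between the mice above the median SD of all genes. This comparison was made after the values had been seen, and with 1 pair of mice it has no test. The SD of the 2 mice had a median of 0.39 over the 10 genes, against 0.15 over all genes, and 1.11% of all genes had an SD at least as large as that of Gclc. The ratio was higher in mouse 1 than in mouse 2 for 9 of the 10, all but Gpx1, against 49.9% of all genes. The median difference, mouse 1 minus mouse 2, was 0.55 for the 10 genes and -0.00 for all genes. In the normalised channel values, more of this difference lay on the organoid side than on the crypt side. The organoids of mouse 1 were above those of mouse 2 for 9 of the 10 (median difference 0.50), against 49.2% of all genes. The crypts of mouse 1 were above those of mouse 2 for 4 of the 10 (median difference -0.08), against 47.7% of all genes. One of the Paneth cell markers, Pla2g2a, differed between the mice in both tissues. It had 18392 and 469 in organoids of mice 1 and 2, and 68801 and 1404 in their crypts. What sets the mice apart was not tested.

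The largest differences, mouse 1 minus mouse 2, were those of Gclc (1.21), Keap1 (0.81), Gpx2 (0.76) and Srxn1 (0.67), and the smallest positive one was that of Nqo1 (0.13). The median ratio of the 10 genes was therefore 0.30 in mouse 1 and -0.49 in mouse 2, where all genes had 0.01 and 0.03. With organoid RNA in Cy5 alone, 8 of the 10 were higher in mouse 1, and with organoid RNA in Cy3 alone also 8 of the 10. With median centring all 10 were higher in mouse 1, but so were 83.8% of all genes.

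**Figure D3:**
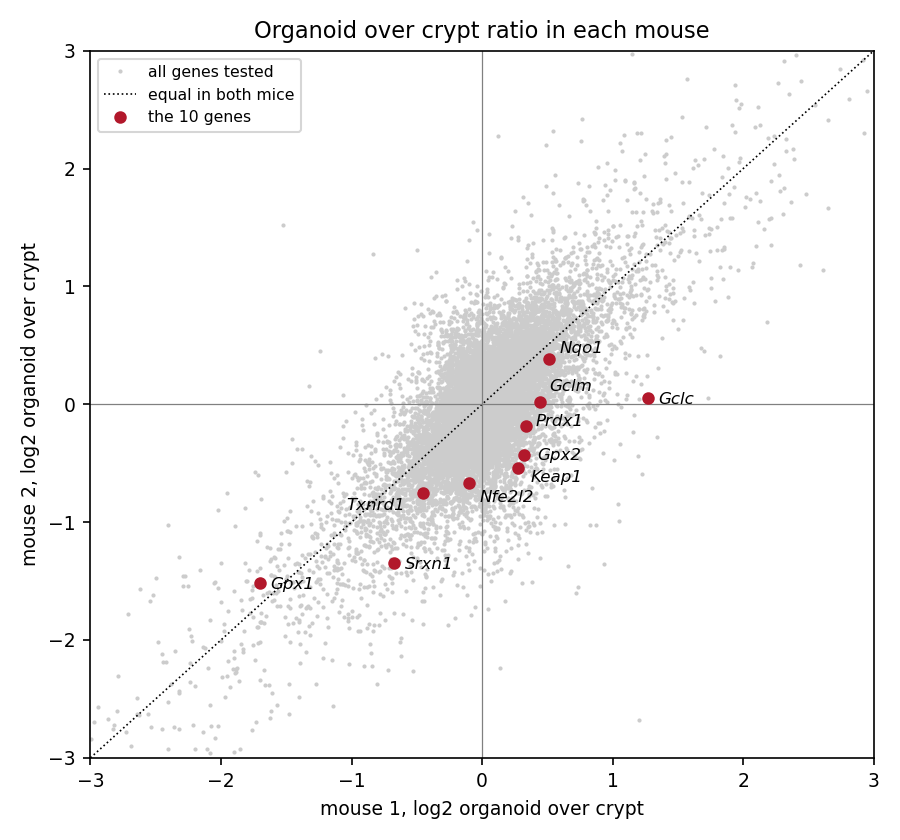
Log2 ratio of organoid over crypt in mouse 1 (horizontal axis) and mouse 2 (vertical axis) for all genes tested (grey; 63 genes lie outside the axes) and for the 10 genes (red), with the dotted line where the mice are equal. All but Gpx1 of the 10 lie below the line, with a ratio higher in mouse 1 than in mouse 2, and Gclc is farthest from it.

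The genes of most like pattern were sought for the highest and the lowest of the 10, by Euclidean distance over the 8 normalised channels, each gene centred on its own mean. The 3 nearest to Gclc were Egln1, a prolyl hydroxylase that senses oxygen (distance 0.460), Hsd17b7, a sterol synthesis enzyme (0.496), and Car9, a carbonic anhydrase (0.504). None of these 3 passed the test. Those nearest to Gpx1 were Mmp7, a Paneth cell protease that is also in the Paneth marker list (0.157), Mep1b, a brush border protease (0.165), and Fcgbp, a mucus protein (0.214). On the log2 scale Mmp7 fell by 1.65, Mep1b fell by 1.67 and Fcgbp fell by 1.65. These 3 were picked over the same channels that give the ratio, so values close to that of Gpx1 follow from the choice.

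The other genes of the pathway were grouped in 6 lists, with 87 genes listed and 82 tested. Of the 82, 18 rose and 9 fell (32.9% called, against 10.9% of all genes), with a median of 0.13. Some of the strongest were known from earlier results of these data, so the lists are no independent evidence of direction. Other targets of NRF2 differed most: of 20 tested, 12 rose, 2 fell and 6 did not pass, with a median of 0.74 (0.99 in mouse 1 and 0.66 in mouse 2). Slc7a11 and Aox1 were too dim to test.

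Cbr3, a carbonyl reductase, had 29983 and 18049 in organoids of mice 1 and 2, against 872 and 441 in crypts, and rose by 5.23 ± 0.18. Gsta3 and Gstm1, glutathione transferases that join glutathione to electrophiles, rose by 4.80 (SD 0.41) and 2.92 (SD 0.0046). Gstm1 had 113747 and 86650 in organoids, against 15077 and 11434 in crypts. These 3 stood well apart between the tissues in both mice. Cbr1, a related reductase, rose by 0.60 ± 0.03 (adjusted p = 0.0468), a call lost in 6 of the alternative settings (adjusted p from 0.0522 to 0.36). The ones that fell were Fth1, the ferritin heavy chain (-1.04, SD 0.0035), and Osgin1, an oxidative stress induced growth inhibitor (-1.01 ± 0.31). Fth1 had -0.69 and -0.63 with organoid RNA in Cy5, and -1.39 and -1.44 in Cy3. Gstm1 had 3.13 and 3.20 in Cy5, and 2.70 and 2.64 in Cy3. Such a dye difference cancels in the mouse means, so the small SD does not show it. The call of Fth1 was lost with median centring (adjusted p = 0.663). Nearest to 0 were Blvrb, a biliverdin reductase (-0.04), and Pgd of the pentose phosphate pathway (0.24). Hybridisation of near-identical relatives to the probes of Gsta3, Gstm1 and Fth1 was not tested.

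Among partners and regulators of NRF2, 2 of 11 rose, none fell and the median was 0.05. Maff, a small MAF partner, rose by 1.44 ± 0.02, with 2354 and 2003 in organoids of mice 1 and 2, against 874 and 729 in crypts. Sqstm1, the p62 protein that binds KEAP1, rose by 1.04 ± 0.17, with 25863 and 22583 in organoids, against 11616 and 11945 in crypts. Rbx1, a subunit of the ligase that KEAP1 serves, had -0.01. Mafg, another small MAF, had 0.04 ± 0.90, with 0.68 in mouse 1 and -0.60 in mouse 2. That order was seen in 9 of the 10 genes and in 49.9% of all genes. The median of the 11 partners and regulators was 0.09 in mouse 1 and 0.09 in mouse 2.

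Of 14 other glutathione genes tested, none rose, 3 fell and 11 did not pass (median -0.10, or 0.19 with median centring). Ggt1, which breaks down glutathione outside the cell, fell by 2.08 (SD 0.24). Slc3a2, a heavy chain shared by the cystine transporter and other amino acid transporters, fell by 1.13 (SD 0.13). Glrx, a glutaredoxin, fell by 0.89 (SD 0.31). Gpx4, the peroxidase of lipid peroxides, had 0.09 and Gss, the second enzyme of glutathione synthesis, had -0.10.

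Of 17 other thioredoxin, peroxiredoxin and sulfoxide repair genes, 2 rose and 2 fell (median 0.13). The sestrins, stress-induced proteins, moved both ways: Sesn3 rose by 1.42 ± 0.02 and Sesn2 by 0.90 ± 0.02, while Sesn1 fell by 1.16 (SD 0.04). Prdx5 fell by 0.83 (SD 0.08). The mitochondrial Prdx3 (-0.02) and Txnrd2 (-0.05) were nearest to 0.

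Of 6 tested genes in a further list of antioxidant genes, Sod1, the cytosolic superoxide dismutase, rose by 0.70 ± 0.10 and none fell. Sod1 had 1.01 and 1.11 with organoid RNA in Cy5, and 0.24 and 0.42 in Cy3. Sod2 had -0.11 and Park7 0.11. Gpx1, Gpx2 and Txnrd1 are selenoproteins, and of 14 other genes of selenoproteins and of the selenocysteine machinery 1 rose and 2 fell (median -0.29). Selenop, which carries selenium between tissues, fell by 1.71 (SD 0.98), with -2.40 in mouse 1 and -1.02 in mouse 2. Selenow fell by 0.86 (SD 0.01), and Pstk, a kinase of the selenocysteine tRNA pathway, rose by 0.70 ± 0.13. Selenof had -0.03 and Sephs2 had 0.10. Besides Cbr1, the calls of Glrx, Prdx5, Sod1, Selenop, Pstk and the NRF2 targets Abcc1 and Ftl1 were lost with the deposited matrix. The same calls were lost with the ratios of the scanner software, and 19 of the 82 passed in each. With no filter on dim probes 18 of the 82 passed. All of these calls but that of Prdx5 were then lost, and also those of Osgin1 and Abcc4. With the mean over probes, Sod1 had 0.20 and Pstk had 0.39, and neither passed. With median centring 7 of the 82 pathway genes passed, all 7 of them in the NRF2 target list.

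**Figure D4:**
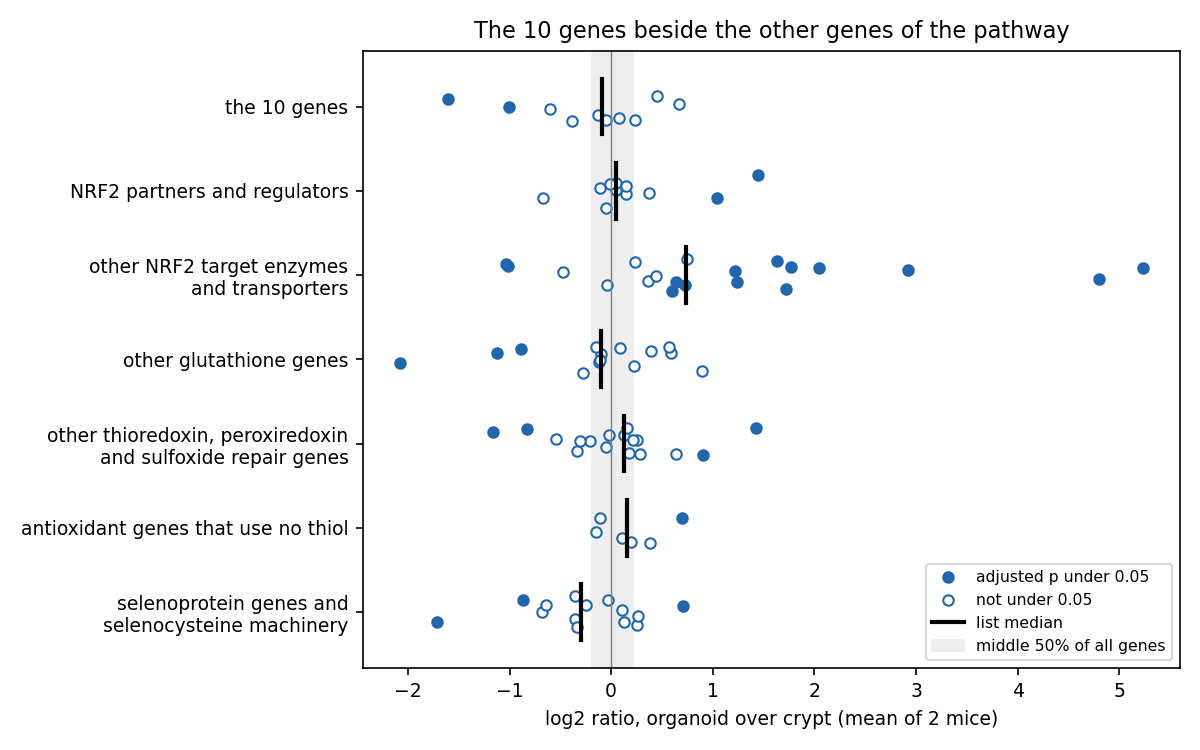
Log2 ratio of organoid over crypt (horizontal axis, mean of 2 mice) for the 10 genes and the 6 lists of other pathway genes, with filled points for an adjusted p under 0.05, a bar at each median and grey for the middle 50% of all genes. Other NRF2 target genes have a median of 0.74, with Cbr3, Gsta3 and Gstm1 far to the right, and the 10 genes have a median of -0.09.

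Promoter sequence was available for 9 of the 10 genes, all but Gclc, from RefSeq for GRCm38.p6, as windows of 250 bases before and 50 bases from the start site on. They were searched on both strands for TGACNNNGC, the core of the antioxidant response element. It was in a window of 5 of the 9, Nfe2l2, Gclm, Txnrd1, Srxn1 and Prdx1, and in those of 12.4% of all 32851 promoters, or 14% of all 27025 genes. It starts at -240 in Nfe2l2, at -134 in Gclm, at -92 in 1 of the windows of Txnrd1, at 28 in Srxn1 and at -133 in Prdx1, counted from the start site. These letters were not in the windows of Keap1, Nqo1, Gpx1 or Gpx2. Of the called pathway genes outside the 10, 8 of 25 with a window held it. The search was for these letters only, and binding of NRF2 to a match was not tested. Other forms of the element were not searched. The Srxn1 window also holds tgagtcagc before the start site, which differs from the searched letters by 1 base and was not counted. The windows of the genes that fell are shown, with the match to the searched letters in Srxn1 in capitals. Srxn1 is at chr2:152105274-152105573 and Gpx1 at chr9:108338830-108339129, both on the plus strand.
Srxn1: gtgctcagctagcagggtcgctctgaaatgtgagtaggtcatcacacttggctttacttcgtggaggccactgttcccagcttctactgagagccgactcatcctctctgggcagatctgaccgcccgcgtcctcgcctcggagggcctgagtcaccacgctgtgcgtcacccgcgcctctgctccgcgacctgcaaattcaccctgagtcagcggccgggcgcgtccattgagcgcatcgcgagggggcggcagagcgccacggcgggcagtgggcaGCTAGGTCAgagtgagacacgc
Gpx1: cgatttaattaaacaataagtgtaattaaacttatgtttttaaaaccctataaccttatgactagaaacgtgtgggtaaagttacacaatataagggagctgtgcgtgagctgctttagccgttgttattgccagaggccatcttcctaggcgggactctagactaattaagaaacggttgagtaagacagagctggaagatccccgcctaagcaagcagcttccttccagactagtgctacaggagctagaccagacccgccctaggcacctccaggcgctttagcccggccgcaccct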

How the data were processed

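For each spot and dye, the deposited files give a mean intensity and a median local background on a linear scale. They also give a log10 ratio (Cy5 over Cy3) computed by the scanner software, per the file headers. The authors' matrix holds log2 ratios (Cy5 over Cy3), and how the authors centred them is not stated. The file headers name Agilent Feature Extraction 10.2.1.3 and the submitters' processing notes name 9.5.3. The labels name Trizol and the design text an RNeasy kit.

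Ratios were computed with limma 3.58.1 under R 4.3.3, using normexp background correction (offset 50), loess within arrays, control spots at weight 0, and spots with an outlier mark left out. The dye labels set the direction, organoid over crypt, and dye swaps were averaged within mouse. A probe was kept if no array marked it and all 4 channels of either tissue were well above background, and the brightest represents its gene. The 2 mouse means were tested against 0 (two-sided, 1 residual degree of freedom plus 4.16 prior degrees of freedom). Channel intensities were made comparable by Aquantile. Levels of different probes were compared only to pick the brightest of a gene and in the summed marker intensities. Those sums weigh the brightest probes most and do not measure cell content. All 4 arrays share 1 slide and 1 scan.

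The test was tried on simulated data under 2 models of how gene variances are distributed. With each gene's fitted posterior variance, which was run first, false calls well exceeded the nominal 0.05. With variances drawn from the fitted prior, a model added after that result, they were close to it but most changes of 1 on the log2 scale were missed. A robust prior did not lower the false calls. The error rate behind the calls is therefore uncertain, and an adjusted p just under 0.05 should be read with that in mind.

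The genes and lists were chosen with earlier results of these data known. In each list, up to the 3 highest and 3 lowest genes that passed are named, and up to 2 nearest 0 that did not.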

Additional observations from a re-analysis of the deposited data

How the results depend on the processing

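With median centring 223 genes passed, 0 of the 10 genes, 0 of their 14 probes and 7 of the 82 other pathway genes. With no filter on dim probes, 677 genes, 1 of the 10 and 1 probe passed. With organoid RNA in Cy3 alone 908 genes and 1 of the 10 passed, and 1 of the 10 passed with the mean over probes, the deposited matrix and the scanner's own ratios. In these 5 settings Srxn1 missed the threshold and Gpx1 passed. With the 4 arrays fitted singly, 3709 genes passed with a dye effect and 3080 with mouse as a random block, and 4 of the 10 passed in each, Nqo1 and Txnrd1 being added. Those fits take repeat arrays of a mouse as partly or wholly separate. A robust prior variance, added after the simulation was seen, gave 1651 genes and 2 of the 10. The median of the 10 genes was 0.26 with median centring and 0.04 in Cy3 alone, and lay between -0.49 and 0.30 when either mouse was left out. The cause was not tested. The median difference between the mice, mouse 1 minus mouse 2, was 1.25 with median centring, where that of all genes was 0.53. Blocking by slide or scan could not be fitted, since there was 1 of each. The analysis is paired throughout, since each ratio sets both tissues of a mouse against each other, and no unpaired fit was made. With 2 mice and 1 residual degree of freedom, a gene that missed the threshold is not shown to be equal in the tissues.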
